A study of Mus musculus with 4 samples.

Results

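The Ifitm genes Ifitm1, Ifitm2, Ifitm3 and Ifitm5 were examined in mouse forelimb buds that had lost Smarcc1 in limb mesenchyme. The 4 genes were chosen by gene name, from 35727 Ensembl identifiers in the deposited table, because Ifitm1 had been called lower in the knockout. Its difference between genotypes is therefore a description and carries no test. RNA was sequenced from 4 libraries at E11.5, each from both forelimb buds of an individual embryo. Knockout embryos (PrxCre/+;Smarcc1c/c, n = 2) had the PrxCre driver, which recombines in the mesenchyme of the limb, and controls (Prx+/+;Smarcc1c/c, n = 2) lacked it. All 4 embryos were homozygous for the conditional Smarcc1 allele, and within each genotype replicate 1 was a 40-somite embryo and replicate 2 a 39-somite embryo. Ectoderm, blood and endothelium lie outside the reach of PrxCre but were in the tissue. Smarcc1, which encodes the BAF chromatin remodelling subunit BAF155, had 46.2 and 38.4 TPM in the knockout libraries, against 112 and 119.6 TPM in controls. TPM counts transcripts of a gene per 1000000 transcripts, after scaling for length. In whole buds, fewer cells of a type and less RNA per cell cannot be told apart.

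IFITM proteins are small membrane proteins of the dispanin family, best known for blocking the entry of enveloped viruses. IFITM3 acts mainly in endosomes and IFITM1 mainly at the cell surface, and both are induced by interferon in many cells. IFITM5, also called BRIL, is instead a protein of bone-forming osteoblasts and is not interferon-responsive. In mouse embryos Ifitm1 and Ifitm3 are also known from primordial germ cells, where Ifitm3 goes by the name fragilis.

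In mm10 the 4 genes lie on chromosome 7 in a cluster that spans 68.97 kb together with Ifitm6. Ifitm5 (ENSMUSG00000025489, 140948958 to 140950291) comes first on the chromosome, followed by Ifitm2 (ENSMUSG00000060591, 140954837 to 140955987), both on the minus strand. Ifitm1 (ENSMUSG00000025491) follows on the plus strand from 140967221 to 140969825. Ifitm3 (ENSMUSG00000025492) lies beyond it on the minus strand from 141009586 to 141010770. Gene starts are the outermost 5′ ends in the GENCODE M21 annotation.

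The promoter windows of Ifitm1, Ifitm2 and Ifitm3 are shown because these close copies had unequal levels and unequal differences between genotypes. Each runs from 250 bases before the RefSeq start to 50 after it, so that the start is base 251, and is read 5′ to 3′ along the gene (RefSeq, GRCm38.p6). They cover chr7:140967826-140968125 (plus strand) for Ifitm1, chr7:140955912-140956211 (minus strand) for Ifitm2 and chr7:141010695-141010994 (minus strand) for Ifitm3. Capitals mark matches on either strand to 3 motifs: the core of the interferon-stimulated response element (GAAANNGAAA), the gamma-activated site (TTCNNNGAA) and the GLI core (GACCACCCA).
Ifitm1: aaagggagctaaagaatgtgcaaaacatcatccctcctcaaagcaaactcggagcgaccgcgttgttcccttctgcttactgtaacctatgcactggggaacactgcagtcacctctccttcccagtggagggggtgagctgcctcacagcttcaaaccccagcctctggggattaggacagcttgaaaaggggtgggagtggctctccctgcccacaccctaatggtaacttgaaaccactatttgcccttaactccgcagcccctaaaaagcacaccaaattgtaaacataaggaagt
Ifitm2: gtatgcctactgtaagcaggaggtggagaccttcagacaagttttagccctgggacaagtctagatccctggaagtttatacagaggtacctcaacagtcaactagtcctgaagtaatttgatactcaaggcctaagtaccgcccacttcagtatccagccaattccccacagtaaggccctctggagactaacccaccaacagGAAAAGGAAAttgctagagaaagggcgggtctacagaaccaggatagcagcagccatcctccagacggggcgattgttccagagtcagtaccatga
Ifitm3: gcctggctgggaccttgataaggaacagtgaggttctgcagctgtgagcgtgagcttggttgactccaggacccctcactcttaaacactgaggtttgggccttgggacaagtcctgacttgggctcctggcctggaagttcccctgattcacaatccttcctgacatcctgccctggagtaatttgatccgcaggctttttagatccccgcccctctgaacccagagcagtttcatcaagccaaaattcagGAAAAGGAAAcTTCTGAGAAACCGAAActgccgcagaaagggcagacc

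The Ifitm3 window held matches to the interferon-stimulated response element core at bases 253 to 262 and 270 to 279. A gamma-activated site at bases 264 to 272, which reads the same on both strands, overlapped the second of them. The Ifitm2 window held 1 response element match, at bases 205 to 214, and the Ifitm1 window held no match to any of the 3 motifs. Ifitm5 held a match to the GLI core on the opposite strand at bases 49 to 57. Among 32851 RefSeq promoter windows of the same length, 3.44% held the response element core, 8.30% the gamma-activated site and 0.253% the GLI core. A match is a description of letters and not a shown binding site. The RefSeq start of Ifitm1 lies 855 bases from the outermost GENCODE start, so that the window covers 1 of its possible promoters, whereas the 2 starts are 26 bases apart for both Ifitm2 and Ifitm3.

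Ifitm1 was the member with the large difference. It had 9.49 TPM (40 somites) and 8.99 TPM (39 somites) in knockout embryos, against 38.5 and 49.3 TPM in controls. Both knockout libraries lay far below both controls, with a knockout mean 0.21 of the control mean. The difference in log2(TPM + 1), knockout minus control, was -2.12 ± 0.15 (SE, n = 2 per genotype). At the same stage it was -1.91 between the libraries with 40 somites and -2.33 between those with 39. It ranked 16 from the lowest among the fold changes of 12809 tested genes. With Ifitm1, 1 of the 4 members was called lower, against a background of 0.492% of tested genes called lower in the knockout by limma with Benjamini-Hochberg adjustment at 0.05. That call chose the family, so nothing is read from it. Of the 4 members 0 were called higher, beside 0.812% of all tested genes, and 2, Ifitm1 and Ifitm3, were lower by limma's unadjusted p at 0.05, beside 6.89%.

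**Figure D1:**
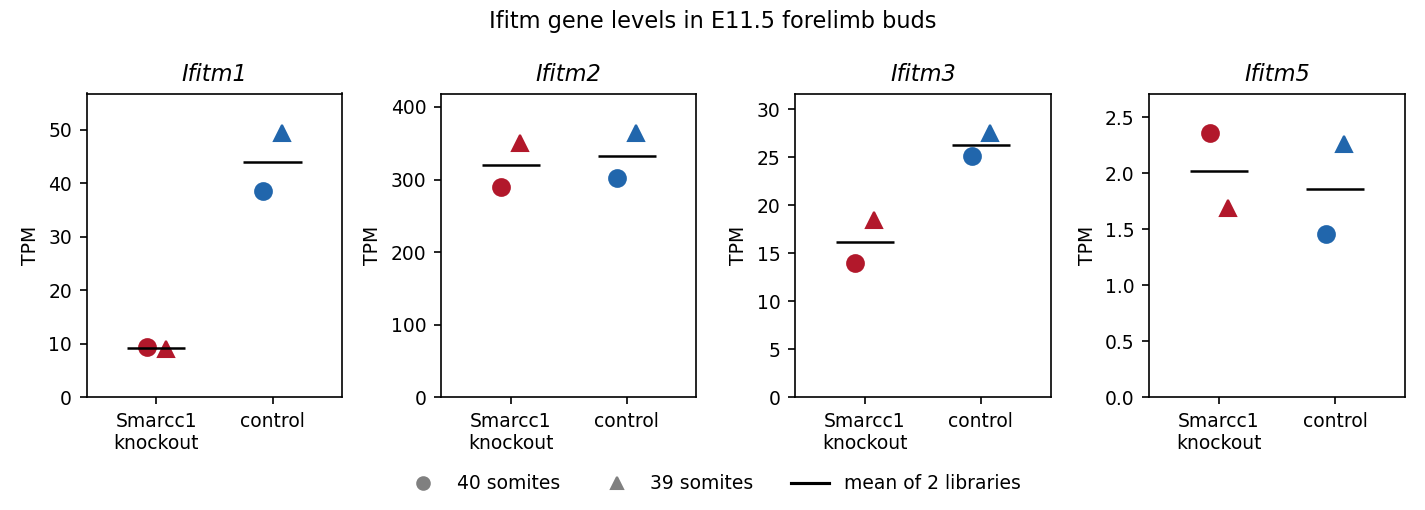
Level in TPM (vertical axes, each starting at 0) of the 4 Ifitm genes in each library, knockouts at the left in red and controls at the right in blue; circles are embryos with 40 somites, triangles those with 39, and bars the mean of 2 libraries. The genotypes are separated for Ifitm1 (9.49 and 8.99 against 38.5 and 49.3 TPM) and Ifitm3, while those of Ifitm2 and Ifitm5 overlap.

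Ifitm2, an antiviral family member, was by far the most abundant Ifitm transcript and did not differ detectably between genotypes. Knockout embryos had 290.1 and 350.2 TPM, against 302.1 and 363.9 TPM in controls. The genotypes overlapped, and both 39-somite embryos lay above both 40-somite embryos. The difference between genotypes was -0.06 ± 0.15 on the log2 scale (limma, Benjamini-Hochberg adjusted p = 0.923), with a 95% interval from -0.42 to 0.31, and -0.06 within each stage. The 39-somite embryo exceeded the 40-somite one by 20.7% in the knockout and by 20.5% in the control. Stage coincided with sex, since the Y-linked gene Ddx3y was at most 0.0498 TPM at 40 somites and at least 28.3 TPM at 39, so the 2 cannot be told apart. The summed level of 10 endothelial markers moved the same way by stage, at 69.5 TPM with 40 somites and 98.7 TPM with 39 in the knockout, and at 51.4 and 99.5 TPM in the control. Its part in the Ifitm2 levels was not tested.

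Ifitm3, the endosomal antiviral gene, stood lower in the knockout but did not pass over all genes. Knockout embryos had 13.99 and 18.5 TPM, against 25.2 and 27.5 TPM in controls. Both knockout libraries lay below both controls, as they did for 21.2% of all tested genes. The difference was -0.68 ± 0.16 (limma, Benjamini-Hochberg adjusted p = 0.137), with a 95% interval from -1.06 to -0.29, and the mean ratio was 0.617. Within stages it was -0.80 at 40 somites and -0.55 at 39. With somite stage in the model Ifitm3 passed, with the same fold and an adjusted p from limma of 0.0385, in a fit that called 4.16% of all genes, and 2.08% of all genes as lower. Knockout replicate 2 lay nearer the controls, so leaving it out could only enlarge the difference, to -0.87. Without knockout replicate 1 the difference was -0.49, and without control replicate 1 or 2 it was -0.74 or -0.61. Of 15 alternatives, which include rows where Ifitm3 is summed with Ifitm2, it passed in 2. The macrophage markers, summed over 10 genes, stood at 17.1 and 16.5 TPM in knockouts, against 18.6 and 27.3 TPM in controls. Of the 7 tested, 0 passed in limma, beside 1.3% of all tested genes. Of the 7, 6 lay below 0, beside 6179 of 12809 tested genes, with a median of -0.37 beside 0.01. In limma Adgre1 alone had an unadjusted p under 0.05, beside 13.7% of all tested genes. The log2 fold change of Adgre1 was -0.84 ± 0.21, and -0.89 without knockout replicate 1, where 1 knockout library is left. Their part in the Ifitm3 level was not tested.

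Ifitm5, the osteoblast gene, was barely detected. Knockout embryos had 2.36 and 1.69 TPM, against 1.46 and 2.27 TPM in controls. The genotypes overlapped, and the difference was 0.08 ± 0.21 (limma, Benjamini-Hochberg adjusted p = 0.920), with a 95% interval from -0.43 to 0.60. Of 11 osteoblast genes, Ibsp and Bglap2, which encode bone matrix proteins, were listed at 0 in every library, and Bglap reached at most 0.624 TPM. Among the 6 osteoblast genes tested 0 passed in limma, beside 1.3% of all tested genes. By limma's unadjusted p at 0.05 there were 2, among them Runx2 (higher), beside 13.7% of all tested genes. Runx2, the early osteoblast regulator, had 2.52 and 1.51 TPM in knockouts, against 0.572 and 0.963 TPM in controls (limma, Benjamini-Hochberg adjusted p = 0.227). Its log2 fold change was 0.76 ± 0.23, and 1.003 without knockout replicate 2, where 1 knockout library is left.

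The order of the members by TPM changed with genotype. In both knockout libraries it ran Ifitm2, Ifitm3, Ifitm1, Ifitm5, and in both control libraries Ifitm2, Ifitm1, Ifitm3, Ifitm5, with no overlap between neighbours in either order. The ratio of Ifitm1 to Ifitm3 was 0.679 and 0.486 in the knockout libraries and 1.53 and 1.79 in the control libraries. Ifitm1 made up 3.01% and 2.37% of the summed TPM of the 4 genes in the knockout, against 10.5% and 11.1% in the control. Ifitm2 made up 91.8% and 92.3% in the knockout and 82.3% and 82.1% in the control. The summed level was 315.9 and 379.4 TPM in knockouts, against 367.2 and 443 TPM in controls, and most of it in every library was Ifitm2. In TPM, however, Ifitm1 differed most between genotypes. Its mean was 9.24 TPM in knockouts and 43.9 TPM in controls, beside 320.1 and 333 TPM for Ifitm2. These shares include the gene that chose the family and are a description.

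Close copies can exchange reads when abundances are estimated, so the shared sequence was measured. Of the distinct 31-base words in the GENCODE M21 transcripts, 11.6% of those of Ifitm1, 55.5% of Ifitm2, 20.5% of Ifitm3 and 27.2% of Ifitm5 also occurred in a transcript of another gene. Between members the overlap was small. Ifitm1 shared 35 of its 1075 words with Ifitm3 and 10 with Ifitm2, and Ifitm3 shared 39 of its 648 with Ifitm2. Most shared words of Ifitm2 lay in Gm45717, an annotated gene that overlaps Ifitm2 and Ifitm5 on the same strand and stood at 0.196 TPM or less. Across the members, 9 processed pseudogenes also held shared words, and these reached at most 0.351 TPM in any library. With Ifitm2 and Ifitm3 summed to 1 row, the log2 difference was -0.10, and with Ifitm1, Ifitm2, Ifitm3, Ifitm6 and Ifitm7 summed it was -0.22; neither passed (limma, Benjamini-Hochberg adjusted p = 0.857 and 0.605). Both sums are dominated by Ifitm2.

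The remaining family members were near 0. Ifitm6, beside Ifitm3 in the cluster, stood at 0.165 and 0 TPM in knockouts, against 0 and 0.0849 TPM in controls. Ifitm7, on chromosome 16, reached at most 0.483 TPM, and Ifitm10, farther along chromosome 7, at most 0.193 TPM. All 3 missed the filter for testing, which asked for 1 TPM in at least 2 libraries. Of 7 further dispanin genes, such as Trarg1 and Prrt1, 5 were below 1 TPM in every library. The other dispanins, Prrt2 and Syndig1, which encode synaptic membrane proteins, were tested and did not pass, at 0.41 and -0.35 on the log2 scale (limma, Benjamini-Hochberg adjusted p = 0.518 and 0.493).

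The question raised by the cluster was whether genes beside Ifitm1 follow it. Within the family, Ifitm3, the next tested gene on the far side, was lower in both knockouts at -0.68, while Ifitm2 was at -0.06. Ifitm3 did not pass in the main fit and passed in 2 of 15 alternatives, summed rows included. Of 33 genes other than the members whose start lay within 250 kb, 17 were expressed enough to test, and 0 passed, against 1.3% of all tested genes called in either direction. Only Rassf7, which was lower, had an unadjusted p under 0.05 in limma, beside 13.7% of all tested genes. The 17 neighbours had a median log2 fold change of -0.03, beside 0.01 for all tested genes, and a range of -0.49 to 0.25. Genotypes were separated for 5 of the 17, against a background of 43.9%. No neighbour within 250 kb passed under any of the 15 alternative settings. The interval of each gene still allows smaller changes.

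Pgghg, which encodes a glycosidase acting on sugar-modified collagen residues, was the nearest tested gene that is not an Ifitm, 25.8 kb from the Ifitm1 start. It had 6.73 and 6.72 TPM in the knockout, against 6.49 and 7.45 TPM in the control, a log2 fold change of -0.04 ± 0.14. On the other side the nearest was the glycosyltransferase gene B4galnt4, 93.9 kb away, at 25.2 and 27.3 TPM in knockouts, against 25.5 and 28.4 TPM in controls (-0.03 ± 0.12). In both genes the genotypes overlapped and the libraries differed little. Psmd13, a proteasome subunit gene, and Sirt3, a mitochondrial deacetylase gene, had log2 fold changes of 0.07 ± 0.12 and 0.20 ± 0.22. Cox8b and the inflammasome gene Nlrp6, also within 100 kb, were listed at 0 in every library. Within 250 kb the highest fold change was that of Ptdss2, a phosphatidylserine synthase gene, at 0.25 ± 0.15, followed by Sirt3. The lowest was that of Rassf7, a RAS-association domain gene, at 22.5 and 18.4 TPM in knockouts, against 28.3 and 29.5 TPM in controls (-0.49 ± 0.14; limma, Benjamini-Hochberg adjusted p = 0.196). Next was the processed pseudogene Gm5905 at -0.32 ± 0.18, for which reads of its source gene may be counted.

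Beyond 250 kb, Irf7, the transcription factor gene that amplifies interferon responses, lay 299.3 kb away and reached at most 0.308 TPM. Sct, which encodes the hormone secretin, lay 311.9 kb away and stood at 6.81 and 6.16 TPM in knockouts, against 14.5 and 11.4 TPM in controls (-0.89 ± 0.16; limma, Benjamini-Hochberg adjusted p = 0.0718). It passed with somite stage in the model (limma, Benjamini-Hochberg adjusted p = 0.0276), with a robust variance and without either knockout replicate, and was chosen after its values were seen. Of the 30 genes tested within 500 kb, 0 passed in limma, beside 1.3% of all tested genes. Rassf7 and Sct were the 2 with an unadjusted p under 0.05 in limma, beside 13.7%.

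**Figure D2:**
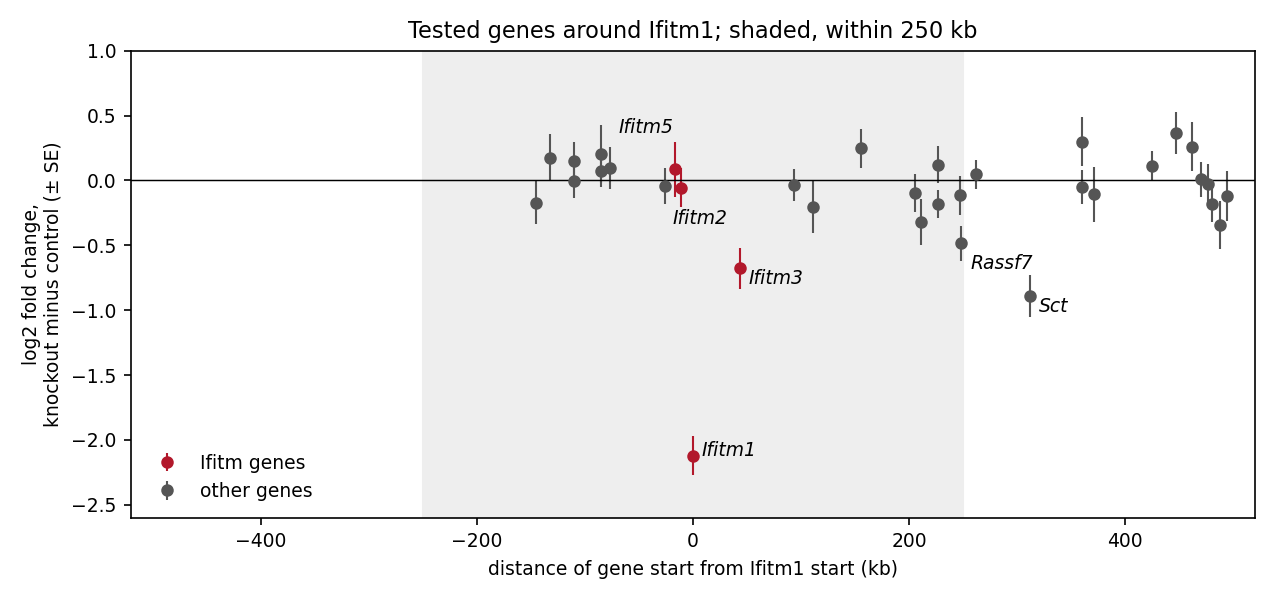
Difference in log2(TPM + 1), knockout minus control, with its SE (vertical axis) for every tested gene within 500 kb, against the distance of its start from the Ifitm1 start in kb (horizontal axis); Ifitm genes are red, other genes grey, and the shading covers 250 kb on either side. Ifitm1 at -2.12 and Ifitm3 at -0.68 lie below the other genes within 250 kb, which run from -0.49 to 0.25.

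Interferon-stimulated genes were mostly near 0, and those tested did not pass. Of 30 such genes, 18 were below 1 TPM in every library, among them the classical response genes Isg15, Ifit1, Mx1 and Rsad2. Of the 11 tested, 0 were higher and 0 lower, against 1.3% of all genes called. Only Oasl2, which was lower, had an unadjusted p under 0.05 in limma, beside 13.7% of all tested genes. The 11 had a median of -0.06, beside 0.01 for all tested genes, with 5 above 0 and 6 below. The gene at the low end was Oasl2, an oligoadenylate synthetase-like gene, at 0.620 and 0.708 TPM in knockouts, against 1.26 and 1.47 TPM in controls (-0.50 ± 0.17; limma, Benjamini-Hochberg adjusted p = 0.270). The peptide transporter gene Tap1 had a log2 fold change of -0.34 ± 0.19, the signal transducer Stat2 0.24 ± 0.15 and B2m, the light chain of MHC class I, -0.17 ± 0.11, and none of them passed. H2-K1, an MHC class I heavy chain gene, split by stage, at 9.35 and 4.09 TPM in knockouts, against 8.14 and 1.91 TPM in controls. The log2 fold change of H2-K1 was 0.49 ± 0.57, and 1.004 without knockout replicate 2, where 1 knockout library is left.

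The genes that receive and relay interferon signals were all expressed and likewise did not pass. Of 14 receptor, kinase and regulator genes, 0 passed in limma, beside 1.3% of all tested genes. In limma 0 had an unadjusted p under 0.05, beside 13.7%. Fold changes of the 14 ran from -0.36 for Irf1, an interferon-induced transcription factor, to 0.28 for the Janus kinase gene Tyk2. The median was 0.00. Ifnar1 and Ifnar2, the type I interferon receptor chains, had log2 fold changes of 0.27 ± 0.16 and 0.26 ± 0.12. Ifnar1 stood at 32.5 and 37.8 TPM in knockouts, against 25.5 and 32.5 TPM in controls. The 14 genes had summed levels of 190.9 and 207.5 TPM in knockouts, against 177.2 and 196.7 TPM in controls.

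Of 8 genes for proteins that bind or modify IFITM proteins, 0 passed, beside 1.3% of all tested genes. In limma 2 had an unadjusted p under 0.05, beside 13.7% of all tested genes: Cd81 (higher) and Cd9 (lower), which both encode tetraspanins. Cd81, a tetraspanin found in complexes with human IFITM1, stood at 149.1 and 182 TPM in knockouts, against 103.1 and 128.4 TPM in controls (0.51 ± 0.16; limma, Benjamini-Hochberg adjusted p = 0.227). Cd9 stood at 24.1 and 21.4 TPM in knockouts, against 43.5 and 31.8 TPM in controls (-0.69 ± 0.17; limma, Benjamini-Hochberg adjusted p = 0.158). Both passed with somite stage in the model (limma, Benjamini-Hochberg adjusted p = 0.0299 and 0.0375) and without knockout replicate 1, at 0.66 and -0.77 (adjusted p = 0.0423 and 0.0136). These fits called 4.16% of all genes and 646 of 12809 genes in turn. The other 6, including Zmpste24, a protease that works with IFITM proteins, and the palmitoyltransferase gene Zdhhc20, ran from -0.14 to 0.06.

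**Figure D3:**
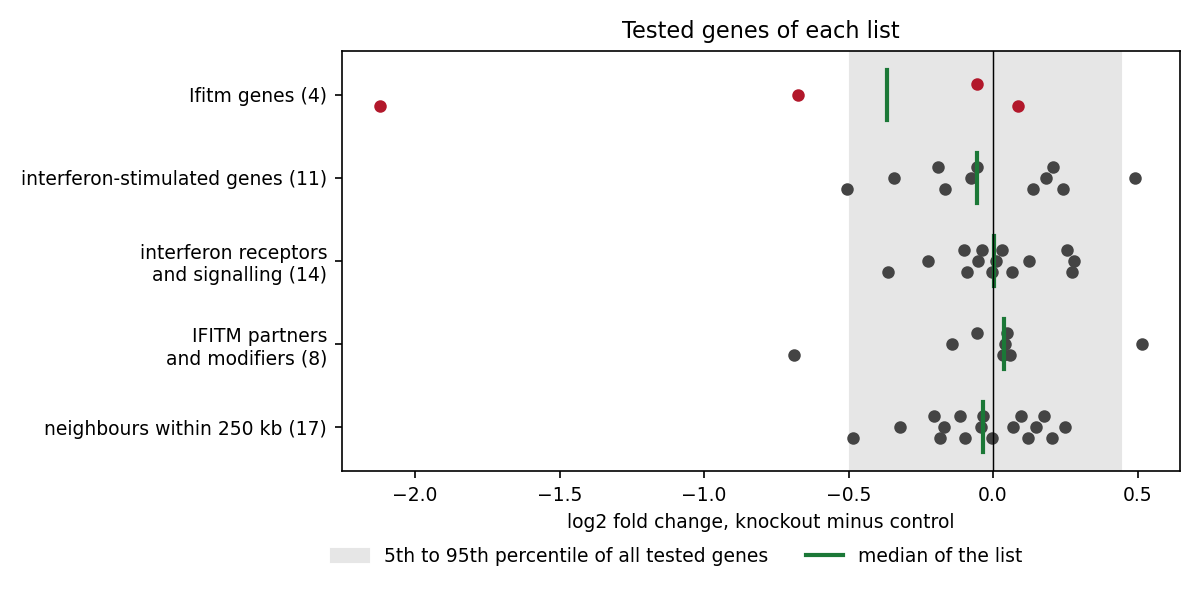
Difference in log2(TPM + 1), knockout minus control (horizontal axis), of every tested gene in 5 lists (rows, with the number tested), a dot per gene and a green bar at the median; the grey band runs from -0.50 to 0.44, the 5th and 95th percentiles of all tested genes. The medians of the lists other than the Ifitm genes lie between -0.06 and 0.04.

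Markers of cell types that could contribute Ifitm transcripts were read beside these results. Of 11 genes used by primordial germ cells, Dppa3 was listed at 0 in every library, and Pou5f1 and Nanog reached at most 0.246 and 0.0556 TPM. Of the 5 that could be tested, which limb or other tissues also express, 0 passed, beside 1.3% of all tested genes. By limma's unadjusted p at 0.05, 1 was higher (Tfap2c) and 1 lower (Nanos3), beside 13.7% of all tested genes in either direction. Tfap2c had 22.9 and 19.9 TPM in knockouts, against 12.3 and 15.8 TPM in controls. Nanos3 had 1.75 and 1.82 TPM in knockouts, against 3.11 and 2.46 TPM in controls. All 12 surface ectoderm markers lay below 0, as did 6179 of 12809 tested genes, with a median of -0.51 beside 0.01. Of the 12, 0 passed, and 4 were lower by limma's unadjusted p at 0.05, beside 6.89% of all tested genes. Fitted with somite stage, 3 passed, beside 2.08% of all genes lower in that fit. Without knockout replicate 1 it was 6, among them Grhl3 at -1.29, where 338 of 12809 genes were called lower. Their summed level was 493 and 310.5 TPM in knockouts, against 629.4 and 412.6 TPM in controls, a log2 ratio of mean sums of -0.38. Of 10 mesenchyme markers, Msx1 was called lower, beside 0.492% of all tested genes, and Pdgfra, a growth factor receptor gene, higher, beside 0.812%. Of the 10, 7 lay below 0, with a median of -0.23 beside 0.01. By limma's unadjusted p at 0.05, 3 were lower and 2 higher, beside 883 and 869 of 12809 tested genes. The mesenchyme markers had summed levels of 805.7 and 904.9 TPM in knockouts, against 860.1 and 1022 TPM in controls. The endothelial sum overlapped between genotypes. The part of these cell types in the Ifitm1 difference was not tested.

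Tested genes outside the family were ranked by how like their profile over the 4 libraries was to that of Ifitm1. Members, unnamed gene models and pseudogenes were left out, so no gene of the cluster could be named. Likeness was the root-mean-square difference between profiles of log2(TPM + 1) centred on each gene's mean, over 4 libraries, so it mostly reads the genotype difference by which Ifitm1 was chosen. The WNT enhancer gene Rspo4 (0.13) was the closest named gene, followed by the LIM homeobox gene Lhx2 (0.18), the homeobox gene Msx1 (0.19) and the connexin gene Gja3 (0.20). Like Ifitm1, all 4 stood higher in the control library with 39 somites than in that with 40. That rise is part of the profile they were picked by, so nothing is read from it. Rspo4 had 0.596 and 0.456 TPM in knockouts, against 4.46 and 7.92 TPM in controls, and Lhx2 had 8.26 and 10.6 TPM in knockouts, against 32.4 and 49.2 TPM in controls. The log2 difference of Rspo4 was -2.19 ± 0.26, and -1.84 without control replicate 2. Rspo4 was picked by its likeness to Ifitm1, so no test is read from it.

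**Figure D4:**
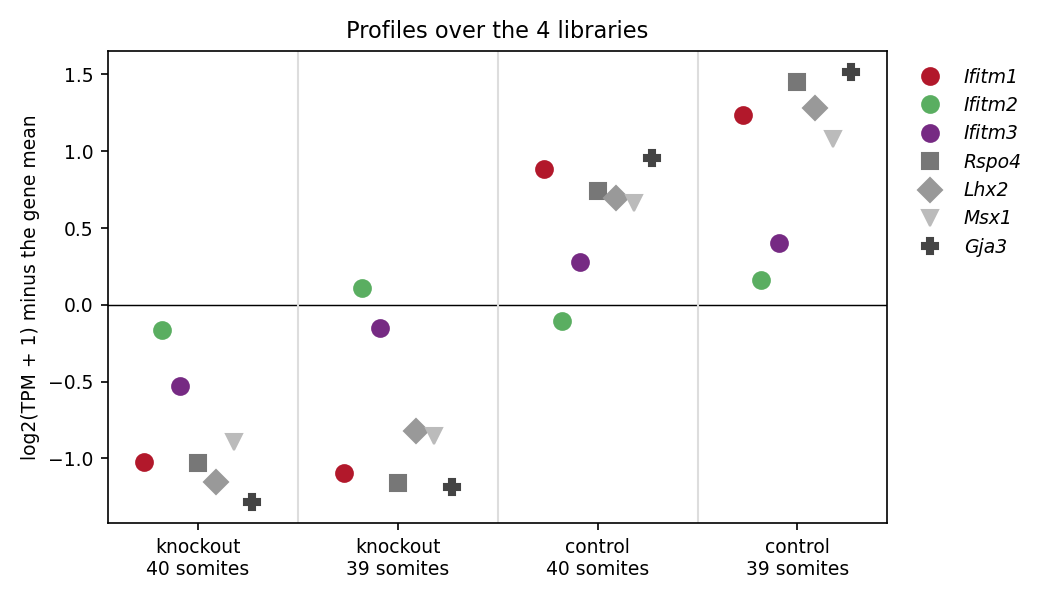
Level of 7 genes in each library as log2(TPM + 1) minus the gene's own mean over the 4 libraries (vertical axis), with knockout libraries at the left and control libraries at the right. Ifitm1 lies at -1.03 and -1.10 in the knockout and 0.89 and 1.24 in the control, among Rspo4, Lhx2, Msx1 and Gja3, while Ifitm2 stays between -0.16 and 0.16.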

How the data were processed

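RNA from 4 libraries, 2 per genotype, was analysed from a deposited table of TPM values made by the authors (transcripts per 1000000 transcripts, scaled for length). Salmon 1.9.0 and mm10 are listed, per the submitters' processing notes, and the transcript set is not given in the sources used here. TPM keeps no depth, so the read depth is unknown and precision rests on the spread between 2 embryos per genotype. One column name carried a letter that its title lacked. Identifiers were matched to symbols for 35422 of 35727 rows, and the 38 symbols found more than once were summed.

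Genes with at least 1 TPM in at least 2 libraries (12809) went into limma 3.58.1 (R 4.3.3) on the log2(TPM + 1) scale, with a variance trend and Benjamini-Hochberg adjustment over all of them at 0.05. The fit was tested on simulated data, where false calls were mostly a larger share than the nominal 0.05, so calls near the threshold are less certain than their adjusted p states. Fold changes on this scale understate those of low genes. With 2 libraries per genotype the smallest two-sided p of an exact permutation test is 0.333. Alternatives changed the pseudocount, filter, scaling, variance model, stage block, libraries, window and threshold. At the same stage, deviations from the genotype means correlated across genes (Pearson 0.25, Spearman 0.36). Members and lists were chosen with earlier results of these data known. The genes named are the family, neighbours within 100 kb other than pseudogenes and unnamed gene models, the 2 largest rises and falls within 250 kb, up to 4 genes per list with the smallest p, and the 5 most like Ifitm1, of which 1 is not reported here. Untested genes at or near 0, and genes called only in an alternative, were named after their values were seen.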

Additional observations from a re-analysis of the deposited data

Results flagged for a closer look

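The difference of Ifitm5 between genotypes ran in opposite directions at the 2 stages. As a log2 difference (pseudocount 1, knockout minus control) it was 0.45 between the embryos with 40 somites and -0.28 between those with 39. Each value rests on 1 library per genotype, and the difference between the stages was not tested.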

How the results depend on the processing

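Ifitm1 kept its direction in all 14 alternatives that gave it a value, at -2.30 to -1.77 on the log2 scale outside the summed row, where -0.22 was found. For Ifitm2 the log2 fold change ran from -0.19 to 0.08 with a library left out, above 0 without knockout replicate 1 or control replicate 2 (0.0786 and 0.0769). For Ifitm5 it ran from -0.12 to 0.29, below 0 without knockout replicate 1 (-0.07) or control replicate 1 (-0.12). Ifitm3 ran from -0.87 to -0.49 with a library left out. Of 15 alternatives, summed rows included, it passed in limma in 2, without knockout replicate 2 and with somite stage as a block (-0.68). The count of genes called, 167, was 533 with the stage block, 275 with a robust variance, 316 at a threshold of 0.1 and 0 with no filter on low values in limma (2338 at an unadjusted p under 0.05), where more genes with low values enter the test. It was 50 to 646 with a library left out: 646 and 501 without knockout replicate 1 and 2, 59 and 50 without control replicate 1 and 2. The interferon-stimulated genes had 0 to 1 calls with a library left out, 1 without knockout replicate 2 (H2-K1), and a median of 0.20 with a filter at 5 TPM, which leaves fewer genes. With 1 library left in a genotype, that library is assumed to vary like the others. The causes of the other shifts were not tested. The stage block uses the labels' somite number and no replicate number. With that block 266 genes were higher and 267 lower, against 104 and 63 without it. Calls of Ifitm1, Smarcc1, Rspo4, Lhx2, Msx1 and Gja3 were lost with no filter on low values. Among neighbours within 250 kb 0 passed in these settings, and their median log2 fold change stayed between -0.10 and 0.07. The depth of the libraries is unknown.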
